A study of Homo sapiens with 6 samples.

Results

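Matrix metalloproteinases (MMPs), ADAM and ADAMTS proteases and the tissue inhibitors of metalloproteinases (TIMPs) were described in 6 tumours that Huh7 cells formed under the skin of nude mice. Huh7 is an established human hepatocellular carcinoma line. In the 3 control tumours the cells carried an empty vector, and in the other 3 (IR-A tumours) they overexpressed isoform A of the human insulin receptor from the plasmid pRcCMVi.hIR-A(GFP). The transfected cells of both groups had been selected with G418 and by cytometry for green fluorescence. The host in both groups was a nude mouse, which lacks mature T cells but keeps macrophages, neutrophils and fibroblasts. The sources used here give neither the age of the mice nor which mouse each tumour came from. P-values thus reflect the spread between 6 samples, and part of it may be technical. Members were taken by gene symbol, and 65 of the 24726 probe sets matched. They were 22 MMP, 21 ADAM, 18 ADAMTS and 4 TIMP genes. MMP23A, MMP23B, ADAM7 and ADAMTS7 were not analysed here.

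MMPs are zinc-dependent proteases that cut collagens, laminins and other proteins of the extracellular matrix, and most are secreted as inactive precursors. ADAMs are membrane proteins that release the outer parts of receptors, growth factors and adhesion molecules, while the secreted ADAMTS enzymes cut proteoglycans and procollagens. TIMPs bind the active site of these enzymes. In liver these genes are best known from fibrosis and from tumour invasion, where stellate cells, fibroblasts and macrophages supply much of the enzyme.

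The values are log2 signals, so a difference of 1 is a doubling. The insulin receptor gene INSR, the check of the labels, read 8.04, 7.61 and 8.47 in control tumours and 10.65, 11.31 and 11.01 in IR-A tumours, a difference of 2.95 (SE 0.26). The probe set reads both isoforms of the receptor. Array medians lay between 4.66 and 4.74, and the number of arrays limits the precision. Control tumour 2 correlated less with the other controls (mean r across probe sets 0.982) than with the IR-A tumours (0.987). Hepatocyte markers were bright, with 8 of 8 above the median probe set, which lay at 4.71. The array reads human genes, and RNA of mouse stroma would be read only where it binds the human probes. In a bulk tumour, a change in the number of cells of a type and a change in RNA per cell cannot be told apart.

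Promoter windows could be matched for 37 of the 65 members (56.9%) in the RefSeq table of build GRCh38.p14. A check of base composition or motifs over the families is void, since fewer than 80% had a sequence. Single promoters are shown for some of the genes described below, as examples. Those of ADAM28 and TIMP2, the members with the smallest p-values, are not among them, nor are those of ADAM8 and ADAMTS9. The promoters shown are those of TIMP3, ADAM15, ADAM23 and ADAM10, from genes whose groups did not overlap, and that of MMP10, from the cluster of dim MMP genes. Each is the 250 bases before the annotated start, 5′ to 3′ on the gene's strand. Capitals mark every match on either strand to 3 motifs: the GC box GGGCGG, the TATA box TATAAA and the AP-1-like motif TGANTCA. In the last, N stands for any base. No matches of different motifs overlapped in these windows.
TIMP3, chr22:32801455-32801704, plus strand: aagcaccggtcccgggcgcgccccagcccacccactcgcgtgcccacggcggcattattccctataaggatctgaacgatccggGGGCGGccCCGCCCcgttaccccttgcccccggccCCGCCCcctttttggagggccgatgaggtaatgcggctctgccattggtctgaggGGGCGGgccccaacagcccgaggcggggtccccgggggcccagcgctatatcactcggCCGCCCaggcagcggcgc
ADAM15, chr1:155051066-155051315, plus strand: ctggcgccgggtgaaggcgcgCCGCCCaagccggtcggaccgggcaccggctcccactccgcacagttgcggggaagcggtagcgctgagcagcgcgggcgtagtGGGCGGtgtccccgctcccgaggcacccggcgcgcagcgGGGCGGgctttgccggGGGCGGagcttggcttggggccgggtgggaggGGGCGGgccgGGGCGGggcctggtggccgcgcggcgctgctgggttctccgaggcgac
ADAM23, chr2:206443282-206443531, plus strand: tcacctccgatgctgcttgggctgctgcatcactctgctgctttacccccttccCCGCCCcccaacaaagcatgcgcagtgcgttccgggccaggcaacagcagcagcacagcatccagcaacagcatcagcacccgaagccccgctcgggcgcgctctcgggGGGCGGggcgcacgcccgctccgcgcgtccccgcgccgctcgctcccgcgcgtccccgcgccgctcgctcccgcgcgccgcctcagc
ADAM10, chr15:58749708-58749957, minus strand: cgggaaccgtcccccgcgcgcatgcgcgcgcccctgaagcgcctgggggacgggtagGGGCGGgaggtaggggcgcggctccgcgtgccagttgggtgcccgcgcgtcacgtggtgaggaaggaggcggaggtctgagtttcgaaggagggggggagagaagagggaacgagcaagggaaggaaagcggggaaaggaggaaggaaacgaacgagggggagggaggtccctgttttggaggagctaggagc
MMP10, chr11:102780629-102780878, minus strand: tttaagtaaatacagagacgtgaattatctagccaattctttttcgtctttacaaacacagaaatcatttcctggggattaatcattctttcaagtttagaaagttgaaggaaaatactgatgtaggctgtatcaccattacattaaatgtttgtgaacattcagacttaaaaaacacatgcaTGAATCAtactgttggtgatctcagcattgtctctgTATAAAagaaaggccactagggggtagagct
GC boxes occur in 41.6% of all 27305 promoters of this length, TATAAA in 11.3% and TGANTCA in 6.74%. TIMP3 had 5 GC boxes, ADAM15 had 6, ADAM23 had 2 and ADAM10 had 1, and none of the 4 windows held either other motif. The MMP10 window was the reverse, with no GC box, a TATAAA 31 bases and a TGANTCA 67 bases before the start. A match is a description of letters and not evidence that a factor binds there.

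Between IR-A and control tumours the inhibitors TIMP2 and TIMP3 had higher signal by 1.16 and 0.54 on the log2 scale. Among the ADAMs, ADAM28 was higher by 1.42 and ADAM10 by 0.42, while ADAM23, ADAM15 and ADAM8 differed by -0.96, -0.88 and -0.33. The matrix-cutting ADAMTS9 differed by -0.58. No MMP had an unadjusted p under 0.05, and the gelatinases MMP2 and MMP9 and the secreted collagenases MMP1, MMP8 and MMP13 were dim in both groups. None of the 65 members passed an adjusted p of 0.05 in limma, nor did any of the 24726 probe sets (0%), so none of these differences is called. The overexpressed INSR was not called either (limma adjusted p = 0.0769), so the absence of a call does not show the absence of a difference.

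At an unadjusted p under 0.05, 8 members differed (12.3% of them), 4 higher and 4 lower. Over all probe sets that share was 14.1% (7.1% higher and 7.03% lower), so the members together were near the background. The groups did not overlap in 13 members (20.0%), against 17.2% of all probe sets. Of these, 6 were higher and 7 lower in IR-A tumours, against 7.73% and 9.45% of all probe sets. Besides the 8, they were MMP16, MMP3, ADAM19, ADAMTS15 and ADAMTS16. The median difference of the members was -0.04, and that of all probe sets -0.03. By family, the 8 genes were 2 of 4 TIMPs, 5 of 21 ADAMs, 1 of 18 ADAMTS genes and 0 of 22 MMPs. Family medians were 0.29 for TIMPs, -0.03 for ADAMs, -0.02 for ADAMTS genes and -0.05 for MMPs. All 8 lay among the 26 members brighter than the median probe set, where they made up 30.8%. Brighter probe sets had such p-values more often in general (23.6%, against 4.61% of the dimmer ones). Of the 39 dimmer members, 38 differed by less than 0.25 in either direction.

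**Figure D1:**
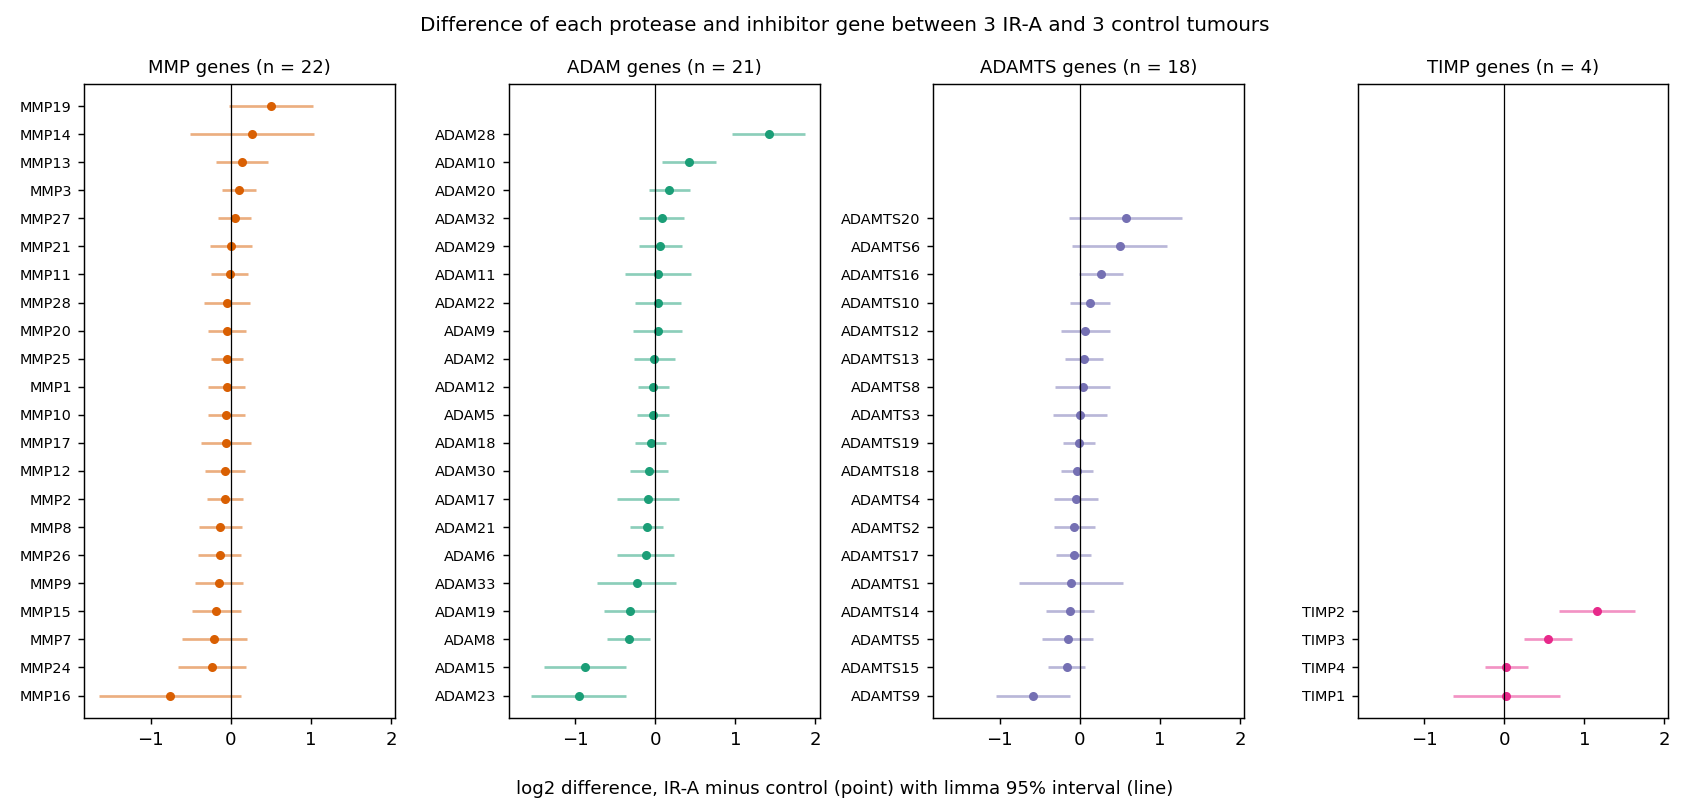
The log2 difference (x axis, IR-A minus control, 3 tumours a group) is plotted for each of the 65 genes by family, with the limma 95% interval as a line. TIMP2 (1.16), TIMP3 (0.54) and ADAM28 (1.42) lie right of 0 with their intervals, and most MMP genes lie close to 0.

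The 4 TIMPs had a median level of 7.32, above that of the median probe set. TIMP2, which inhibits MMPs and also links MMP14 to the precursor of MMP2 at the cell surface, read 5.90, 6.13 and 6.07 in control tumours and 7.59, 7.17 and 6.81 in IR-A tumours. The lowest IR-A tumour lay 0.68 above the highest control. The difference of 1.16 (SE 0.20, 95% interval 0.68 to 1.64) is 2.23-fold, with a limma adjusted p of 0.140. TIMP3, which stays bound to the matrix and also inhibits ADAM17, ADAM10 and several ADAMTS enzymes, read 7.91, 7.82 and 7.57 in control and 8.44, 8.27 and 8.21 in IR-A tumours. Its groups were separated as well, by 0.30, and differed by 0.54 (SE 0.12, 95% interval 0.24 to 0.84, limma adjusted p = 0.165). In both genes IR-A tumour 1 was the highest of the 6 and IR-A tumour 3 the lowest of its group.

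The other TIMPs differed little between the groups. TIMP1, an inhibitor of many MMPs, read 8.65, 8.65 and 9.62 in control and 8.88, 8.89 and 9.23 in IR-A tumours. Control tumour 3 was the highest of all 6, and the IR-A tumours lay between the controls. The difference was 0.03 with a 95% interval from -0.64 to 0.69, which includes values as large as that of TIMP3. TIMP4 was dim at 4.24, 4.44 and 4.24 in control and 4.24, 4.50 and 4.27 in IR-A tumours (difference 0.03, 95% interval -0.24 to 0.30). TIMP1, TIMP3 and TIMP4 overlap the synapsin genes SYN1, SYN3 and SYN2 in the annotation, and the probes' strand use was not checked. TIMP2 overlaps CEP295NL there, and the part of CEP295NL in the TIMP2 reading was not tested. SYN1 differed by 0.0012, SYN2 by -0.0091 and SYN3 by 0.24 (unadjusted p = 0.0480, limma adjusted p = 0.349). The SYN3 groups did not overlap either, with IR-A tumours 0.08 above the highest control, and the part of SYN3 in the TIMP3 reading was not tested.

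**Figure D2:**
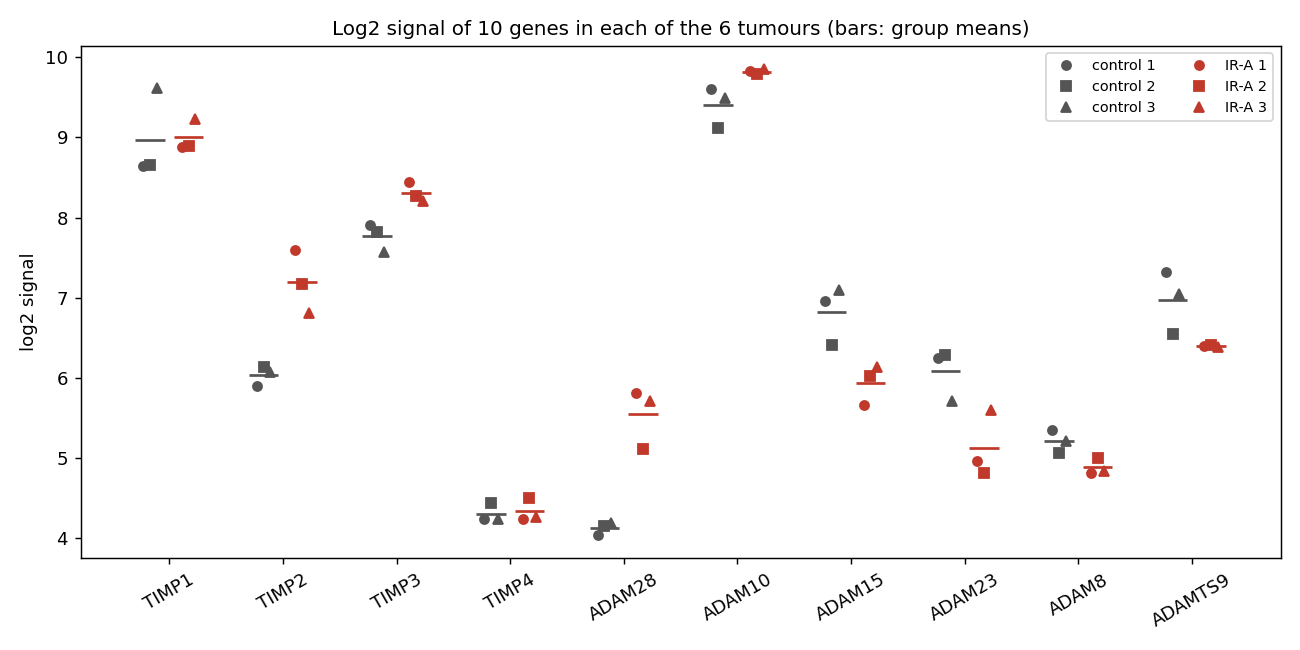
Log2 signal (y axis) of 10 genes is plotted for each control tumour (grey) and IR-A tumour (red), with symbols for the tumour number and bars for group means. TIMP2, TIMP3, ADAM28 and ADAM10 have all 3 IR-A tumours above the controls, ADAM15, ADAM23, ADAM8 and ADAMTS9 have them below, and TIMP1 and TIMP4 overlap.

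TIMP2 and TIMP3 are also made by fibroblasts. The mean level of 10 fibroblast markers was 4.24 to 4.56 in control and 4.58 to 4.67 in IR-A tumours, and their median difference 0.11. At an unadjusted p under 0.05, 0 of 10 were lower and 3 were higher, against 7.1% of all probe sets: LUM (1.26), COL1A2 (0.83) and COL1A1 (0.40). Among the 10, 6 were brighter than the median probe set, and 23.6% of all such probe sets passed that limit in either direction. PDGFRA, another marker, differed by -0.87 (SE 0.57), with control tumour 1 at 7.86 and the other 5 tumours at 5.40 to 6.31. The markers DCN (2.56 to 2.58 over the 6 tumours), FAP (2.90 to 3.06) and POSTN (3.17 to 3.37) were dim everywhere. COL3A1, PDGFRB and THY1 lay above the median probe set on average and differed by 0.10, 0.24 and 0.12. Macrophage markers also had a higher mean, at 4.44 to 4.65 in control and 4.69 to 4.82 in IR-A tumours. Their median difference was 0.0078, and 5 of 10 were below 0. At an unadjusted p under 0.05, 2 of 10 were higher and 0 lower: TYROBP (1.78) and CD68 (0.62). Of all probe sets, 7.1% were higher at that limit. The other 8 macrophage markers differed by -0.24 to 0.12. Endothelial markers lay at 3.84 to 3.94 in control and 3.93 to 3.95 in IR-A tumours. Of these 7, 1 was higher at an unadjusted p under 0.05 and 0 lower: PECAM1 (0.51, SE 0.20). Its groups did not overlap, and it was the 1 endothelial marker above the median probe set. The other 6 differed by -0.07 to 0.10. Neutrophil markers lay at 4.22 to 4.43 in control and 4.31 to 4.38 in IR-A tumours. Hepatocyte markers lay at 11.84 to 12.05 and 12.13 to 12.23, with 4 of 8 higher at an unadjusted p under 0.05. Of the 12363 probe sets above the median level, 1503 were higher at that limit. The part of these cells in the TIMP differences was not tested.

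ADAM28 had the smallest p of all members. It encodes a membrane-bound and secreted protease that is known to cut the insulin-like growth factor carrier IGFBP3. Control tumours read 4.04, 4.15 and 4.19, below the median probe set, and IR-A tumours read 5.81, 5.11 and 5.71. The groups were separated by 0.92. The difference of 1.42 (SE 0.19, 95% interval 0.96 to 1.87) is 2.67-fold, with a limma adjusted p of 0.121. ADAMDEC1, its neighbour on the chromosome and a relative, was dim in both groups and differed by -0.04.

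ADAM10 and ADAM17 are the main sheddases of cell surface proteins, acting on Notch receptors and cadherins and on TNF and EGF receptor ligands. ADAM10 was bright, at 9.60, 9.11 and 9.49 in control and 9.83, 9.79 and 9.85 in IR-A tumours. The IR-A tumours lay within 0.1 of each other and 0.18 above the highest control. The difference was 0.42 (SE 0.14, limma adjusted p = 0.269), and 0.28 without control tumour 2, its lowest tumour. ADAM17 read 6.83, 6.73 and 6.67 in control and 6.84, 6.31 and 6.83 in IR-A tumours. IR-A tumour 2 was the lowest and the other 5 overlapped, with a difference of -0.09 (95% interval -0.47 to 0.30). Whether ADAM10 and ADAM17 differed from each other in their response was not tested. ADAM9, another sheddase, read 10.36, 10.08 and 10.45 in control and 10.39, 10.19 and 10.40 in IR-A tumours, a difference of 0.03 (95% interval -0.28 to 0.34).

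Of the ADAMs with lower signal, ADAM15 carries an integrin-binding motif beside its protease domain. It read 6.96, 6.41 and 7.09 in control and 5.65, 6.03 and 6.14 in IR-A tumours, a difference of -0.88 (SE 0.21, 95% interval -1.39 to -0.37, limma adjusted p = 0.176). The groups were separated by 0.27, with control tumour 2 nearest to the IR-A tumours. ADAM23, which has no protease activity and acts as a binding protein at the cell surface, read 6.24, 6.29 and 5.72 in control and 4.97, 4.82 and 5.60 in IR-A tumours. Control tumour 3 and IR-A tumour 3 lay within 0.12 of each other, and the difference was -0.96 (SE 0.25, limma adjusted p = 0.192). ADAM8, a protease of leukocytes and of many tumours, read 5.35, 5.06 and 5.22 in control and 4.81, 5.0 and 4.83 in IR-A tumours, a difference of -0.33 (SE 0.11, limma adjusted p = 0.277). Its groups were separated by 0.06.

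The remaining 14 ADAMs differed by -0.32 to 0.18, with unadjusted p from 0.0553 to 0.926. The end at -0.32 was ADAM19, whose groups were separated by 0.01. ADAM2, ADAM18, ADAM20, ADAM21, ADAM29 and ADAM30, which are known from testis, gave readings between 2.47 and 3.25 over all arrays. They give a low reference for the family in these tumours.

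**Figure D3:**
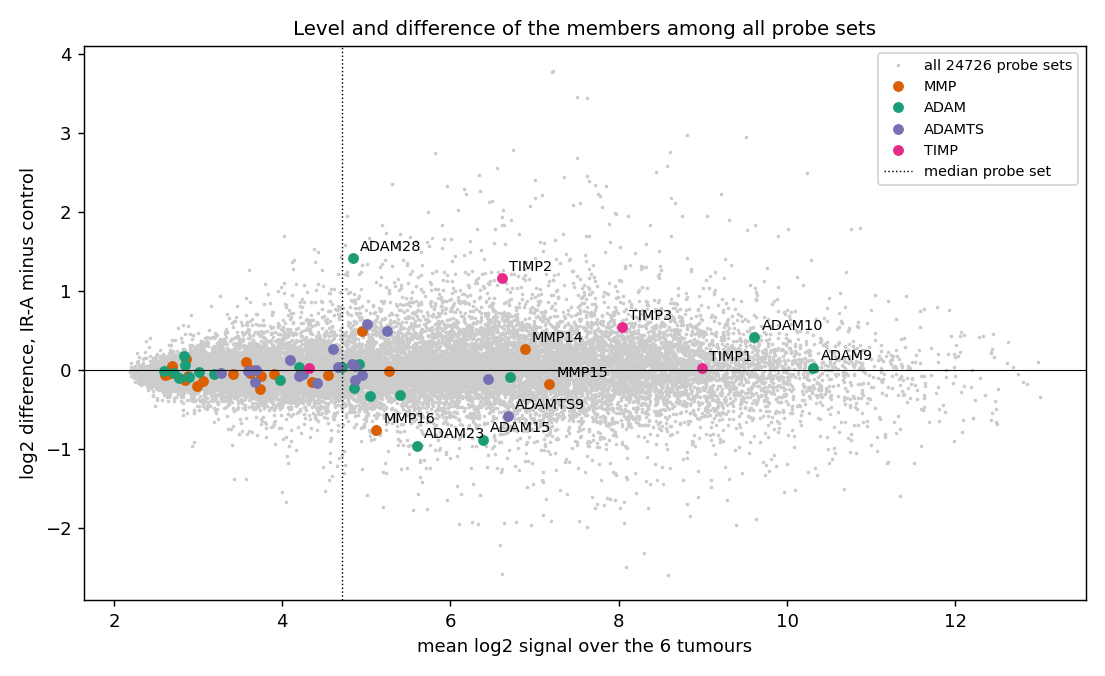
The mean log2 signal of each probe set over the 6 tumours (x axis) is plotted against its log2 difference (y axis, IR-A minus control), with the 65 members coloured by family over all 24726 probe sets in grey. The members right of the median probe set (dotted line, 4.71) spread from -0.96 to 1.42, and those left of it from -0.24 to 0.27.

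The MMPs were mostly dim (median level 3.62), and 17 of 22 lay at or below the median probe set. A run of 9 neighbouring genes on chromosome 11, in the order MMP7, MMP20, MMP27, MMP8, MMP10, MMP1, MMP3, MMP12 and MMP13, holds the collagenases MMP1, MMP8 and MMP13, the stromelysins MMP3 and MMP10, matrilysin MMP7 and the macrophage elastase MMP12. All their readings lay between 2.51 and 3.68, and their differences between -0.21 and 0.14. The testis ADAMs read 2.47 to 3.25. Every reading of MMP3 and MMP20 lay above that range, as did MMP7 in control tumour 3 (3.44). The gelatinase MMP2 read 3.92, 3.73 and 3.72 in control and 3.72, 3.70 and 3.72 in IR-A tumours, a difference of -0.08. The gelatinase MMP9 read 4.44, 4.24 and 4.62 in control and 4.18, 4.34 and 4.33 in IR-A tumours, a difference of -0.15. Both overlapped between the groups. Their 95% intervals ran from -0.30 to 0.15 for MMP2 and from -0.45 to 0.15 for MMP9.

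Of the 5 MMPs above the median probe set on average, 3 were of the membrane type. Such MMPs sit at the cell surface and are activated inside the cell by furin. The other 3 of the 6 membrane-type MMPs, MMP17, MMP24 and MMP25, lay at or below the median probe set. MMP14 (MT1-MMP), a collagenase that also activates MMP2, read 7.09, 6.11 and 7.05 in control and 7.44, 7.01 and 6.61 in IR-A tumours. Control tumour 2 was the lowest, and the difference of 0.27 (95% interval -0.51 to 1.04) turned to -0.06 without that tumour. MMP15 (MT2-MMP) read 7.24, 7.09 and 7.46 in control and 7.15, 7.15 and 6.95 in IR-A tumours, overlapping at a difference of -0.18 (SE 0.13). MMP16 (MT3-MMP) read 6.42, 4.95 and 5.13 in control and 4.70, 4.70 and 4.81 in IR-A tumours. Its groups did not overlap, but the size rests on control tumour 1, with -0.76 (SE 0.37, limma adjusted p = 0.428) over all tumours and -0.30 without it. MMP11 (stromelysin-3), which is secreted already active, read 5.35, 5.16 and 5.32 in control and 5.29, 5.30 and 5.19 in IR-A tumours and differed by -0.01 (95% interval -0.24 to 0.21).

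The other 16 MMPs differed by -0.24 to 0.50. The upper end was MMP19, an MMP of many healthy tissues, chosen here after its values were seen. It read 4.73, 4.91 and 4.48 in control and 5.50, 4.75 and 5.36 in IR-A tumours (limma adjusted p = 0.380), and IR-A tumour 2 lay among the controls.

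Of the ADAMTS genes, 8 of 18 lay above the median probe set. ADAMTS9, which cuts versican and aggrecan, read 7.32, 6.55 and 7.05 in control and 6.39, 6.41 and 6.38 in IR-A tumours. The IR-A tumours were within 0.03 of each other and below every control. The difference was -0.58 (SE 0.19, 95% interval -1.04 to -0.12, limma adjusted p = 0.269). Without control tumour 2, the control nearest to the IR-A tumours, it was -0.79 with an adjusted p of 0.0499, the 1 call among members in any of the 14 alternatives, over which its adjusted p ran up to 0.586. In that setting 308 probe sets (1.25%) were called. ADAMTS1, of the same substrates, read 7.09, 5.99 and 6.41 in control and 6.37, 6.26 and 6.55 in IR-A tumours. All 3 IR-A tumours lay between the controls, and the difference was -0.11 (95% interval -0.76 to 0.54).

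ADAMTS20, another versican-cutting enzyme, read 4.51, 5.38 and 4.26 in control and 5.53, 5.30 and 5.05 in IR-A tumours. Control tumour 2 lay among the IR-A tumours, and the difference was 0.58 (SE 0.29, limma adjusted p = 0.453) over all tumours and 0.91 without it. ADAMTS6 read 5.28, 5.07 and 4.63 in control and 5.56, 5.85 and 5.07 in IR-A tumours, overlapping at a difference of 0.50 (SE 0.25). ADAMTS13, the liver-made enzyme that trims von Willebrand factor, read 5.0, 4.76 and 4.78 in control and 4.89, 4.89 and 4.89 in IR-A tumours, a difference of 0.05. The procollagen N-proteinases ADAMTS2, ADAMTS3 and ADAMTS14 differed by -0.12 to 0.0030. Over the 13 ADAMTS genes not given singly, differences ran from -0.16 to 0.27, with ADAMTS16 at the upper end.

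**Figure D4:**
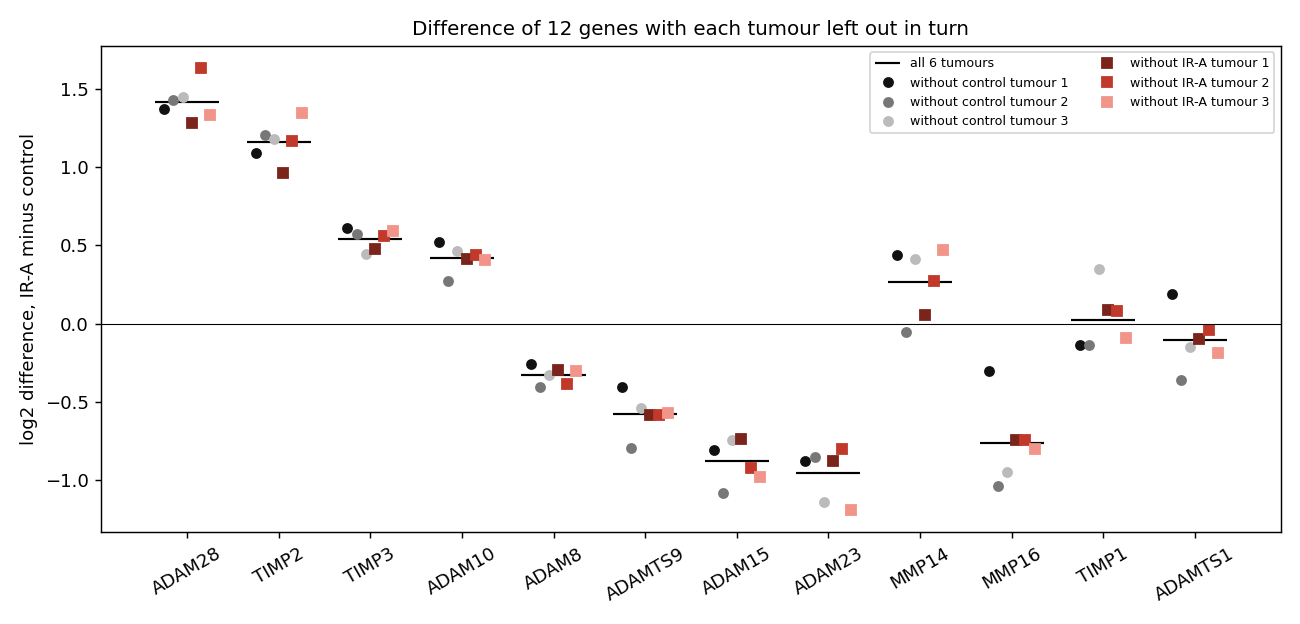
The log2 difference of 12 genes (y axis, IR-A minus control) is plotted over all 6 tumours (line) and with each control (circles) or IR-A tumour (squares) left out. ADAM28 stays between 1.29 and 1.63 and TIMP2 between 0.96 and 1.35, while MMP14, TIMP1 and ADAMTS1 cross 0.

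Of genes that activate or restrain these proteases, 17 were measured, with 3 higher and 1 lower at an unadjusted p under 0.05 (23.5%, against 14.1% of all probe sets) and a median difference of 0.11. Above the median probe set lay 8 of the 17, and 23.6% of all such bright probe sets passed that limit. FURIN, which removes the propeptide of membrane-type MMPs and ADAMs, read 9.03, 9.49 and 9.11 in control and 9.70, 9.55 and 9.49 in IR-A tumours. Its groups overlapped narrowly, with a difference of 0.37 (SE 0.15, limma adjusted p = 0.330). The plasmin inhibitor SERPINF2 differed by 0.61 (SE 0.19) and the Kunitz-type protease inhibitor TFPI2 by 1.03 (SE 0.35), both without overlap, and the proprotein convertase PCSK5 by -0.26 (SE 0.10). LRP1, an endocytic receptor that clears MMPs and TIMPs, differed by 0.92 (SE 0.40), led by IR-A tumour 2 at 10.13 against 7.92 to 8.94 in the other 5. The membrane-anchored inhibitor RECK (0.34), the plasma inhibitor A2M (0.26), plasminogen PLG (0.60), the plasminogen activator PLAU (-0.11) and the MMP inducer BSG (-0.17) overlapped between groups.

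Of 9 partners of ADAM10 and ADAM17, 1 was higher and 2 lower at an unadjusted p under 0.05 (33.3%, against 14.1% of all probe sets), with a median of 0.10. Most were bright, with 8 of 9 above the median probe set, where 23.6% of all probe sets passed that limit. RHBDF2 (iRhom2), which carries ADAM17 to the cell surface, read 5.68, 5.63 and 5.63 in control and 5.51, 5.31 and 5.31 in IR-A tumours, a difference of -0.27 (SE 0.10, limma adjusted p = 0.294). Tetraspanins of one subgroup bind ADAM10 and steer its choice of substrate. Of these, TSPAN15 differed by -0.50 (SE 0.18) and TSPAN33 by 0.39 (SE 0.15), so the partners did not move one way.

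Of 20 substrates, 3 were higher and 0 lower at an unadjusted p under 0.05 (15.0%, near the 14.1% of all probe sets), and the median was 0.02. The 3 were the chemokine CX3CL1 (0.76, SE 0.11, limma adjusted p = 0.126), the receptor IL6R (0.94, SE 0.20) and E-cadherin, CDH1 (1.79, SE 0.40), all of which ADAM10 can shed. CDH1 read 8.19, 9.59 and 9.59 in control and 11.12, 11.06 and 10.54 in IR-A tumours, with control tumour 1 the lowest. The EGF receptor ligands TGFA, HBEGF, EREG and BTC, which ADAM17 or ADAM10 release, differed by -0.15 to 0.20. The ADAMTS substrate versican, VCAN, differed by 0.31 with SE 0.41. Of 13 relatives of the families, 1 passed the same limit: BMP1, which removes the C-propeptide of collagens, with a difference of 0.52 (SE 0.15) and no overlap.

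**Figure D5:**
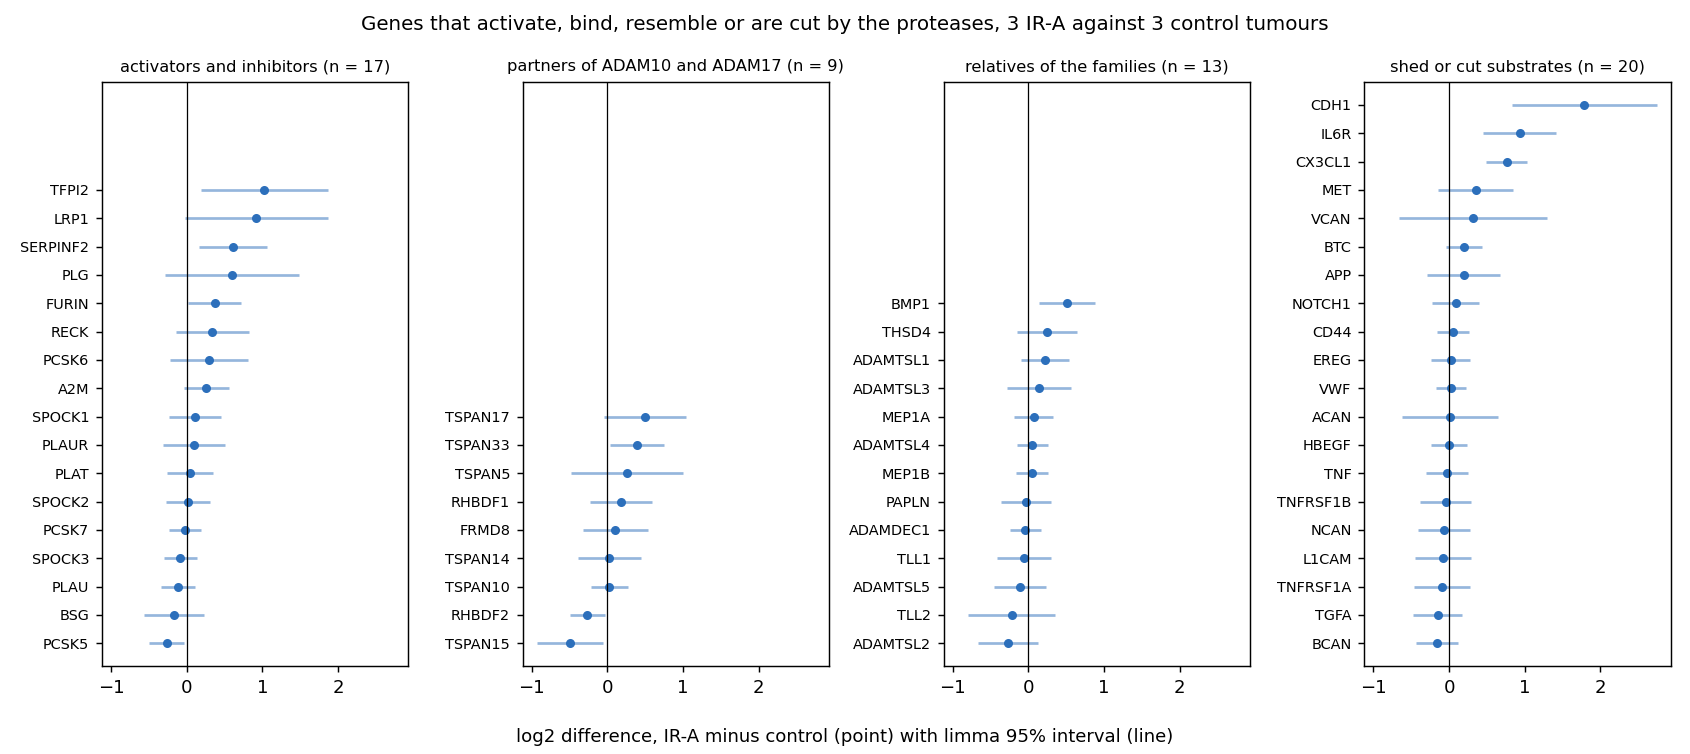
The log2 difference (x axis, IR-A minus control) with its limma 95% interval is plotted for 59 genes that activate or restrain the proteases, bind them, resemble them or are cut by them. CDH1 (1.79), TFPI2 (1.03) and IL6R (0.94) lie farthest right, and TSPAN15 (-0.50) farthest left.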

How the data were processed

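Total RNA (500 ng, Trizol) was labelled with a whole-transcript kit and hybridised to Affymetrix arrays, per the labels' protocols. The authors deposited 1 log2 signal per probe set and array. The submitters' processing notes list RMA and Partek but no version or role. Array model and build: not given in the sources used here. RMA normalizes between arrays, and detection calls were not used here. GEO's annotation named 23934 of 24726 probe sets, and 65 of 65 member gene IDs matched RefSeq.

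IR-A was compared with control by limma 3.58.1 under R 4.3.3 (lmFit, eBayes without trend, every probe set kept). Benjamini-Hochberg adjustment covered all probe sets, at a threshold of 0.05. The script was tested on simulated data. An exact permutation test of 3 against 3 cannot go below p = 0.1, so none was run. Members and lists were chosen with earlier results of these data known. Values per tumour were given for all TIMPs, for members of the other families with an unadjusted p under 0.05 or among the 4 brightest of their family, and for MMP2, MMP9, MMP14, ADAM10, ADAM17 and ADAMTS13 (22 genes). Members named beyond these were chosen after their values were seen. Of the fixed lists, preset genes and those with an unadjusted p under 0.05 were named, and others after their values were seen. Alternatives were quantile normalization, median centring, filters on dim probe sets, trend, robust moderation, a block for replicate number, array weights and each tumour left out. No pair of arrays shared over 4.15% of its values. Figures used matplotlib 3.10.9.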

Additional observations from a re-analysis of the deposited data

How the results depend on the processing

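With the 14 alternatives, the 8 members of unadjusted p under 0.05 kept their direction throughout. For most alternatives this could not be otherwise. Their groups did not overlap, so leaving out 1 tumour cannot reverse them, and the filters, trend, robust moderation and block leave the differences unchanged. The count of members called was 0 in 13 alternatives and 1 without control tumour 2, where 1.25% of all probe sets were called. Leaving out 1 tumour thus gave 0 to 1. Members higher at an unadjusted p under 0.05 numbered 4, and 7 with array weights (3 to 5 with a tumour left out). Members lower numbered 4. There were 7 without control tumour 2, but 2 without control tumour 3, IR-A tumour 1 or IR-A tumour 3 (2 to 7 with a tumour left out). Members without overlap numbered 13, and 31 without control tumour 2, where 38.8% of all probe sets did not overlap. With a tumour left out their number ran from 15 to 31, and the share of all probe sets from 22.8% to 38.8%. The TIMP median was 0.54 without the dimmest 50%, which drops TIMP4.

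Differences near 0 changed sign. MMP11 did so with median centring (0.0018) and without 1 of 3 tumours (0.0083 to 0.023, range over left-out tumours -0.073 to 0.023). ADAM9 did so with array weights (-0.0021), on leaving out control tumour 2 (-0.077) and on leaving out IR-A tumour 3 (-0.0050), with a range up to 0.11. ADAM17 became 0.088 without IR-A tumour 2 (lowest -0.18). TIMP4 turned to -0.0048 without control tumour 1 or 3 and -0.053 without IR-A tumour 2 (highest 0.094). TIMP1 turned to -0.14 without control tumour 1, -0.13 without control tumour 2 and -0.088 without IR-A tumour 3 (highest 0.35). ADAMTS1 became 0.19 without control tumour 1 and MMP14 -0.056 without control tumour 2 (highest 0.47). These changes show how far 1 tumour moves such values. The cause was not tested.

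Tumours with the same number did not deviate together (correlations -0.29, -0.36 and 0.020). With the replicate number as a block, 0 members were called, and 5 were higher and 3 lower at an unadjusted p under 0.05. Over all probe sets 10.9% passed that limit in this setting. Quantile normalization and centring moved the median of all probe sets by under 0.1. No measure of background per probe set was used, so how far the readings of dim members reflect background was not tested.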

Other observations

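Exactly equal readings recurred among the members, given to 5 decimals in the deposited table. Of the 390 readings of members (65 genes on 6 arrays), 132 (33.8%) had a value that also occurred in another probe set. MMP25 and ADAM6 shared 3.91188 in 6 readings, and TIMP4 and ADAMTS4 shared 4.24038 in 5 readings, a value found in 36 probe sets of the table. ADAM5 read 2.73251 and ADAM12 read 3.02488 on 5 of 6 arrays each. At least 2 arrays had an equal reading in 22 of 65 members (33.8%), against 24.0% of all probe sets, and in 19 of the 39 members at or below the median probe set (48.7%), against 34.8% of all such probe sets. The SD of ADAM12 in control tumours was 0.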
